A study of Sus scrofa with 12 samples.

Results

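The genes described here are 35 genes of sterol and fatty acid synthesis, given as a list of symbols: 17 of the sterol pathway, 5 that control it, 2 of intracellular sterol transport, 4 of the liver X receptor (LXR) and sterol efflux, and 7 of fatty acid synthesis. Of these, 33 could be matched to a gene ID among the 21153 genes of the count table. PMVK and LSS could not be matched and are named only. TM7SF2 stayed under 1 CPM (counts scaled to 1e+06 counted reads of a library) in every library, which left 32 genes to test.

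Primary arterial endothelial cells (ECs) of 3 pigs were exposed to laminar flow for 48 h at a shear stress of 2 dyne/cm2 (low), 30 dyne/cm2 (physiological) or 80 dyne/cm2 (supra-high). Each pig gave 4 cultures, low and supra-high shear with a physiological control of its own for either, so that 12 libraries fall into 4 groups of 3. Set 1 of the controls (30.1) was compared with low shear and set 2 (30.2) with supra-high shear. No genetic change or drug is named for any group, and all cells were grown on gelatin in medium with fetal calf serum and heparin, so the control cultures also received the sterols and fatty acids of serum. The methods name coronary arteries of 8-month-old pigs from a slaughterhouse and a single type of flow slide, whereas the labels call the cells aortic and give the 80 dyne/cm2 cultures and their own controls another slide and another seeding density. Flow was constant and not pulsatile. The comparison of 80 dyne/cm2 with set 2 and that of 2 dyne/cm2 with set 1 share no library.

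Cells build cholesterol from acetyl-CoA through the mevalonate pathway, and fatty acids from malonyl-CoA. Both pathways are driven by the sterol regulatory element-binding proteins (SREBPs), which SCAP escorts out of the endoplasmic reticulum when sterols are scarce and which the INSIG proteins hold back when sterols are plentiful. For cholesterol, though not for fatty acids, LXR acts in the other direction: oxysterols activate it, and its targets export cholesterol or, as MYLIP does, degrade the receptor that takes up lipoproteins. ECs take up lipoprotein cholesterol as well as making it, and sterols shape the membrane through which they sense flow.

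Between 29606854 and 41058902 reads were counted per library (median 33871914), and no libraries held identical counts. The endothelial character of the cells was checked with 10 markers, of which 7 had a gene ID and all 7 were above 1 CPM. Their summed level was 6920 to 7725 CPM in set 1, 6558 to 7402 CPM in set 2, 7930 to 8622 CPM at 80 dyne/cm2 and 4409 to 5611 CPM at 2 dyne/cm2. In the edgeR test of 2 vs. 30 dyne/cm2, all 7 had a log2 fold change below 0. PECAM1 (-0.71), TEK (-2.95) and ESAM (-0.56) were lower at an adjusted p under 0.05, as were 12.4% of all genes. The other 4 were not: CDH5 (-0.11, adjusted p = 0.521), TIE1 (-0.18, 0.255), ERG (-0.22, 0.134) and KDR (-1.27, 0.0609). The 6 fibroblast markers, 5 of them above 1 CPM, summed to 381 to 1296 CPM at 2 dyne/cm2 and 166 to 299 CPM in set 1. They summed to 131 to 711 CPM in set 2 and 44.5 to 171 CPM at 80 dyne/cm2. COL3A1, the most abundant, had 359 to 1116 CPM at 2 dyne/cm2. At 2 vs. 30 dyne/cm2, COL3A1 (log2 fold change 1.97), PDGFRA (1.09) and COL1A2 (0.96) were called higher. COL1A1 (1.44, adjusted p = 0.0590) and LUM (-0.11, 0.763) were not, and DCN was not tested. At 80 vs. 30 dyne/cm2, COL3A1 was called lower (-1.90, adjusted p = 0.0203) and the 3 others tested were not called. Of the 8 smooth muscle and pericyte markers, 2 were above 1 CPM, MCAM and PDGFRB, and the contractile genes ACTA2, TAGLN, MYH11 and CNN1 stayed under 1 CPM in all libraries, with DES at 0. This list summed to 61.5 to 110 CPM at 2 dyne/cm2, 111 to 129 CPM in set 1, 48.8 to 146 CPM in set 2 and 60.8 to 305 CPM at 80 dyne/cm2. MCAM made up most of each sum, so the sums say little about PDGFRB, which reached at most 6.67 CPM. At 2 vs. 30 dyne/cm2 PDGFRB was called higher (log2 fold change 2.41, adjusted p = 0.00758, or 0.116 without a donor term). MCAM was not called there (-0.50, 0.0837). At 80 vs. 30 dyne/cm2 MCAM was called higher (0.77, 0.0251) and PDGFRB was not called (-0.54, 0.328). The leukocyte genes PTPRC and CD3E reached at most 2 and 1 counts, and the 6 leukocyte markers summed to at most 27.4 CPM. Most of that sum came from CD68 and CD14, which had counts in every library and reached 21.1 and 4.91 CPM. At 2 vs. 30 dyne/cm2 CD68 was called lower (log2 fold change -1.17, adjusted p = 0.00961), and CD14 was not called (0.11, 0.798). The part of the endothelial and fibroblast markers in the results was not tested, and in bulk RNA fewer cells of a type cannot be told apart from less RNA per cell.

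Low shear stress lowered most of these genes. At 2 vs. 30 dyne/cm2, 25 of 32 genes fell, 0 rose and 7 were not past the threshold (edgeR quasi-likelihood test with donor as a term, adjusted p under 0.05 over 11226 genes). Over all genes tested, 25.8% were called, with 12.4% lower and 13.4% higher. The fall was at least 2-fold for 8 genes (ACAT2, HMGCS1, IDI1, SQLE, HSD17B7, EBP, NPC1 and ELOVL6), against 9.6% of all genes in either direction and 4.54% downward. All 14 tested genes of sterol synthesis fell, as did both transport genes, 6 of 7 fatty acid genes and 3 of 5 control genes, and 0 of the 4 LXR genes did. At an unadjusted p under 0.05 there were 27 of 32, against 42.5% of all genes. The median log2 fold change of the 32 genes was -0.70.

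The count of 25 changed with a donor left out, which also left fewer libraries. No share of all genes is given for those fits, so a general loss of calls cannot be told apart. Without donor 1 the count was 16, as MVD, FDPS, SC5D, SREBF2, SCAP, INSIG1, FASN, SCD and FADS1 were no longer past the threshold. Without donor 2 it was 20, with SC5D, SREBF2, INSIG1, FASN and SCD lost. Without donor 3 it was also 20, with MVD, FDPS, SC5D, SREBF2 and FASN lost. A fit with no replicate block, that is without donor as a term, called 18 of the 32, all lower, and lost MVK, FDPS, SC5D, DHCR7, FASN, SCD and FADS1. That fit called 11.1% of all genes.

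Counted gene by gene within donors, 27 of 32 genes were lower at 2 dyne/cm2 in all 3 donors, against 33.4% of all genes tested, and INSIG2 was higher in all 3 (32.2% of all genes). For 24 genes, all lower at 2 dyne/cm2, the 3 libraries of the low group did not overlap with those of set 1, against 18.9% of all genes. No gene of the list was higher without overlap (17.6% of all genes). FADS1 was the called gene with overlapping groups.

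The first steps of sterol synthesis turn acetyl-CoA into mevalonate and then into isoprenoid units. HMGCS1, which makes HMG-CoA and lies at chr16:27936225-27957261 (Sscrofa11.1), had 149, 203 and 147 CPM at 2 dyne/cm2 in donors 1, 2 and 3, against 566, 632 and 559.8 CPM in set 1. The groups were far apart, and the log2 fold change was -1.81 (SE 0.10, adjusted p = 0.00331), a 3.52-fold fall. ACAT2, the cytosolic thiolase that feeds HMGCS1, had 83.4, 100.1 and 68.9 CPM at 2 dyne/cm2 and 163, 188 and 176 CPM in set 1 (log2 fold change -1.06, SE 0.10, adjusted p = 0.00657). Every low-shear library lay below every library of set 1. MVK, which phosphorylates mevalonate, had 19.4, 35.2 and 21.8 CPM at 2 dyne/cm2 and 35.5, 62.3 and 54.6 CPM in set 1 (log2 fold change -0.99, SE 0.12, adjusted p = 0.00870). Here donor 2 at low shear reached almost the level of donor 1 in set 1, although each donor fell within itself. IDI1, the isomerase that makes dimethylallyl diphosphate, had 75.3, 124 and 93.1 CPM at 2 dyne/cm2 and 218, 246 and 238 CPM in set 1, without overlap (log2 fold change -1.28, SE 0.12, adjusted p = 0.00638). MVD, which decarboxylates mevalonate diphosphate, fell by 0.59 on the log2 scale (SE 0.13, adjusted p = 0.0297). FDPS, which joins the units to farnesyl diphosphate, fell by 0.68 (SE 0.15, adjusted p = 0.0321) at a mean of 8.49 ± 2.34 CPM against 13.5 ± 1.91 CPM (SD, n = 3).

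The committed steps from farnesyl diphosphate to lanosterol and on to cholesterol fell likewise. FDFT1, squalene synthase, had 107, 132 and 131 CPM at 2 dyne/cm2 and 201, 235 and 211 CPM in set 1 (log2 fold change -0.79, SE 0.09, adjusted p = 0.00849). SQLE, the oxygenase that makes squalene epoxide, had 82.4, 89.3 and 82.2 CPM at 2 dyne/cm2 and 192, 168 and 181 CPM in set 1 (log2 fold change -1.07, SE 0.09, adjusted p = 0.00525). Both genes kept a narrow spread within groups and a wide gap between them. MSMO1, the C4-methylsterol oxidase, had 99.2, 148 and 95.1 CPM at 2 dyne/cm2 and 226, 265 and 186 CPM in set 1 (log2 fold change -0.98, SE 0.10, adjusted p = 0.00681). NSDHL, which acts after it in removing the C4 methyl groups, had 39.4, 57.6 and 37.5 CPM at 2 dyne/cm2 and 74.6, 93.5 and 87.1 CPM in set 1 (log2 fold change -0.93, SE 0.11, adjusted p = 0.00850). Donor 2 was the highest of the low-shear libraries for both genes and still lay under every library of set 1.

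HSD17B7 (chr4:87720747-87743037), the reductase that completes removal of the C4 methyl groups, had 12.2, 15.9 and 10.3 CPM at 2 dyne/cm2 and 34.9, 54.1 and 48.7 CPM in set 1. Its log2 fold change of -1.82 (SE 0.15, adjusted p = 0.00497), a 3.54-fold fall, and that of HMGCS1 were the lowest of the 32. EBP, the sterol isomerase, had 76.2, 118 and 59.5 CPM at 2 dyne/cm2 and 159, 238 and 174 CPM in set 1 (log2 fold change -1.19, SE 0.12, adjusted p = 0.00669). DHCR7, which makes cholesterol from 7-dehydrocholesterol, had 44.4, 61.3 and 40.5 CPM at 2 dyne/cm2 and 64.5, 89.4 and 83.0 CPM in set 1 (log2 fold change -0.69, SE 0.12, adjusted p = 0.0175). Its groups did not overlap, by a small margin between donor 2 at low shear and donor 1 in set 1. SC5D, the desaturase just before DHCR7, changed least of the sterol genes, falling by 0.39 on the log2 scale (SE 0.09, adjusted p = 0.0363). Its call was lost with any donor left out (adjusted p = 0.0523 to 0.207) and with no replicate block (0.0704). The within-donor difference of log2(CPM + 1) had a median over the sterol genes of -0.90, -0.82 and -1.13 in donors 1, 2 and 3.

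**Figure D1:**
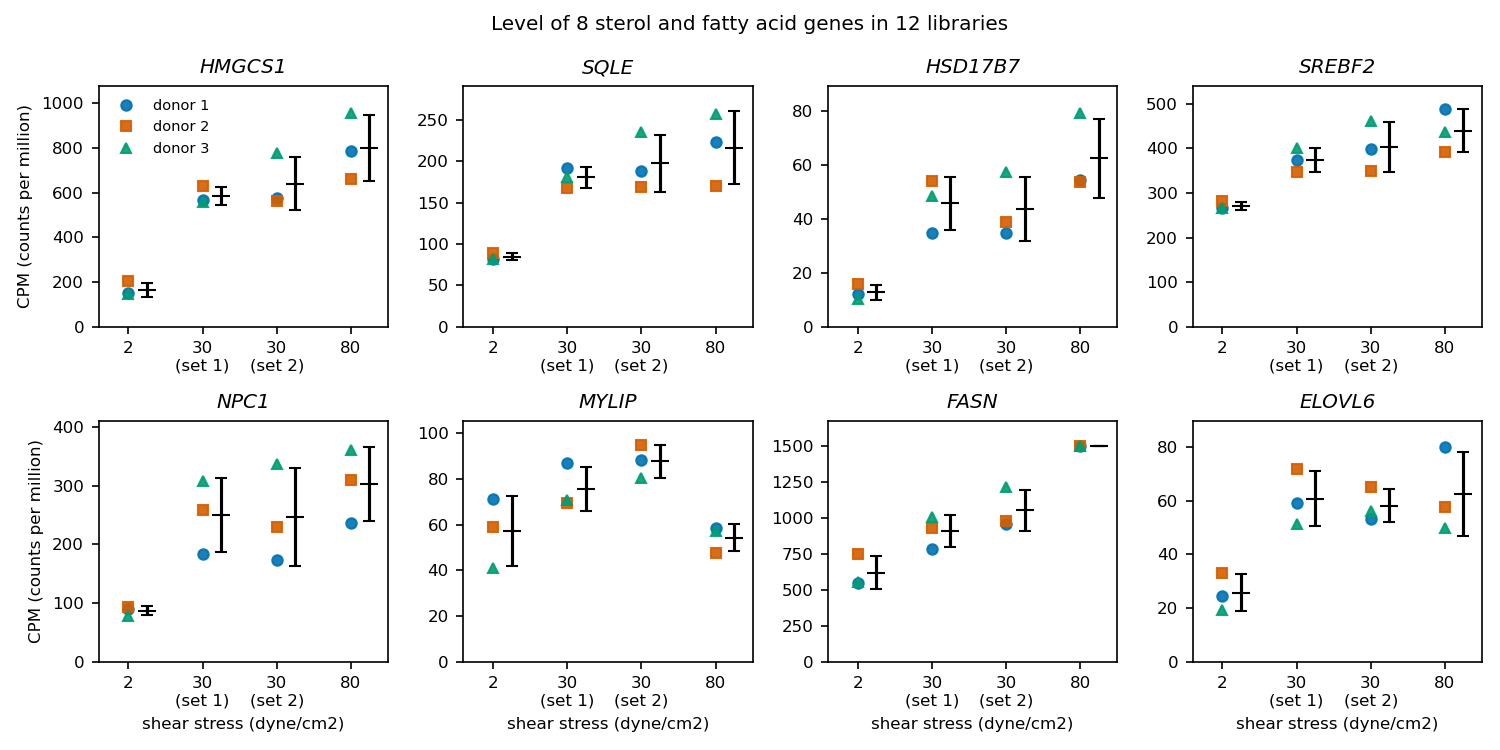
CPM of 8 genes (vertical axes, each starting at 0) in the 12 libraries by shear stress in dyne/cm2 (horizontal axis); points are libraries with a marker for each donor, and the black bars give the mean ± SD of 3 donors. HMGCS1, SQLE, HSD17B7, SREBF2, NPC1, FASN and ELOVL6 have their 3 lowest libraries at 2 dyne/cm2, FASN lies at 1500 to 1501 CPM in all 3 libraries at 80 dyne/cm2, and MYLIP is below set 2 at 80 dyne/cm2.

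Of the 5 genes that control SREBP activity, 3 fell, each by less than 2-fold. SREBF2, which encodes the SREBP that acts mainly on sterol genes, had 266, 281 and 266 CPM at 2 dyne/cm2 and 374, 347 and 401 CPM in set 1, a log2 fold change of -0.45 (SE 0.09, adjusted p = 0.0275), a call lost with any donor left out (adjusted p = 0.0572 to 0.159). Low-shear libraries lay close together, below all of set 1. SREBF1, whose SREBP-1c form acts mainly on fatty acid genes, had 71.4, 75.7 and 66.3 CPM at 2 dyne/cm2 and 93.8, 70.9 and 90.1 CPM in set 1. In donor 2 the order was the opposite of that in the other donors, and the log2 fold change of -0.23 (SE 0.12) was not past the threshold (adjusted p = 0.208). The counts are per gene and do not separate the SREBP-1a and SREBP-1c transcripts. INSIG1, which retains the SCAP-SREBP complex and is itself an SREBP target, had 106, 140 and 120 CPM at 2 dyne/cm2 and 222, 202 and 182 CPM in set 1, a log2 fold change of -0.71 (SE 0.13, adjusted p = 0.0223). Its fall was largest in donor 1, at -1.06 within the donor against -0.53 and -0.59 in the others. INSIG2, which has the same role but is not known as an SREBP target, had a log2 fold change of 0.08 (SE 0.11, adjusted p = 0.595), with 8.66 to 10.4 CPM at 2 dyne/cm2 and 8.34 to 9.79 CPM in set 1. SCAP fell by 0.49 on the log2 scale (SE 0.08, adjusted p = 0.0167).

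Both sterol transport genes fell. NPC1 (chr6:108403126-108450486), which moves lipoprotein-derived cholesterol out of lysosomes, had 89.7, 92.9 and 78.0 CPM at 2 dyne/cm2 and 184, 258 and 308 CPM in set 1. Donors differed in set 1 but not visibly at low shear, and the log2 fold change was -1.48 (SE 0.18, adjusted p = 0.00905), a 2.79-fold fall. STARD4, a soluble carrier of cholesterol between membranes, had 27.9, 32.6 and 25.2 CPM at 2 dyne/cm2 and 53.5, 63.8 and 51.9 CPM in set 1 (log2 fold change -0.97, SE 0.08, adjusted p = 0.00489). It fell alike in the 3 donors, by 0.91, 0.95 and 1.01 on the log2(CPM + 1) scale.

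None of the 4 LXR and efflux genes was past the threshold at 2 dyne/cm2. With an unadjusted p under 0.05 there were 2 of 4, and DESeq2 called 1 of 4, MYLIP (adjusted p = 0.0406). With set 2 as the control, which by the labels had another slide and seeding density, ABCG1 (log2 fold change -1.59, adjusted p = 0.0168) and MYLIP (adjusted p = 0.0258) were called lower. ABCA1 and MYLIP were called lower with both control sets (adjusted p = 0.0287 and 0.0115) and in 1 fit over 12 libraries (0.0497 and 0.0380). NR1H3, which encodes LXR alpha, was near the detection limit of the filter, with 2.49 to 3.14 CPM at 2 dyne/cm2 and 1.95 to 2.68 CPM in set 1 (log2 fold change 0.27, SE 0.20, adjusted p = 0.347). ABCA1, the exporter of cholesterol to apolipoprotein A-I, had 88.6, 137 and 124 CPM at 2 dyne/cm2 and 115, 224 and 136 CPM in set 1 (log2 fold change -0.40, SE 0.14, adjusted p = 0.0983). It was lower in each donor, but the groups overlapped, with donor 2 above the others in both. ABCG1, which exports cholesterol to high-density lipoprotein, had 0.54 to 1.48 CPM at 2 dyne/cm2 and 0.515 to 2.21 CPM in set 1 (log2 fold change -0.48, SE 0.25, adjusted p = 0.211). MYLIP (chr7:12117240-12137934) had 71.4, 59.1 and 40.9 CPM at 2 dyne/cm2 and 86.8, 69.3 and 70.9 CPM in set 1 (log2 fold change -0.42, SE 0.12, adjusted p = 0.0640). Each donor was lower at 2 dyne/cm2, and the groups overlapped.

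In fatty acid synthesis the range was wide. ELOVL6, the elongase of long-chain saturated and monounsaturated fatty acids, had 24.6, 33.1 and 19.3 CPM at 2 dyne/cm2 and 59.0, 71.8 and 51.4 CPM in set 1 (log2 fold change -1.25, SE 0.09, adjusted p = 0.00403). It was the only fatty acid gene of the 7 past the 2-fold limit. FADS2, the delta-6 desaturase of polyunsaturated fatty acids, had 152, 190 and 120 CPM at 2 dyne/cm2 and 268, 307 and 257 CPM in set 1 (log2 fold change -0.86, SE 0.10, adjusted p = 0.00826). FADS1, the delta-5 desaturase next to it on chromosome 2, had 83.3, 111 and 53.0 CPM at 2 dyne/cm2 and 120, 148 and 85.3 CPM in set 1 (log2 fold change -0.53, SE 0.08, adjusted p = 0.0143). Donors were in the same order in both groups of FADS1, and the call was lost without the donor term (adjusted p = 0.266).

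ACLY, which makes cytosolic acetyl-CoA from citrate, had 349, 464 and 292 CPM at 2 dyne/cm2 and 525, 691 and 617 CPM in set 1 (log2 fold change -0.73, SE 0.13, adjusted p = 0.0188). FASN (chr12:922405-937560), fatty acid synthase, had 549, 751 and 553 CPM at 2 dyne/cm2 and 786, 931 and 1009.5 CPM in set 1 (log2 fold change -0.55, SE 0.13, adjusted p = 0.0380). The fall of FASN was no longer past the threshold without any of the 3 donors (adjusted p = 0.149, 0.0626 and 0.0710 without donors 1, 2 and 3). SCD, the stearoyl-CoA desaturase, fell by 0.59 on the log2 scale (SE 0.10, adjusted p = 0.0174), with a mean of 409 ± 88.5 CPM against 623 ± 150 CPM (SD, n = 3). ACACA, which makes malonyl-CoA and so stands between ACLY and FASN, was not called, with 243, 204 and 208 CPM at 2 dyne/cm2 and 183, 218 and 198 CPM in set 1 (log2 fold change 0.14, SE 0.12, adjusted p = 0.415). It was higher at low shear in donors 1 and 3 and lower in donor 2. The library values of ACLY, FASN, DHCR7, ABCA1, ABCG1 and ACACA are given outside the rule for named genes and were chosen after they had been seen.

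**Figure D2:**
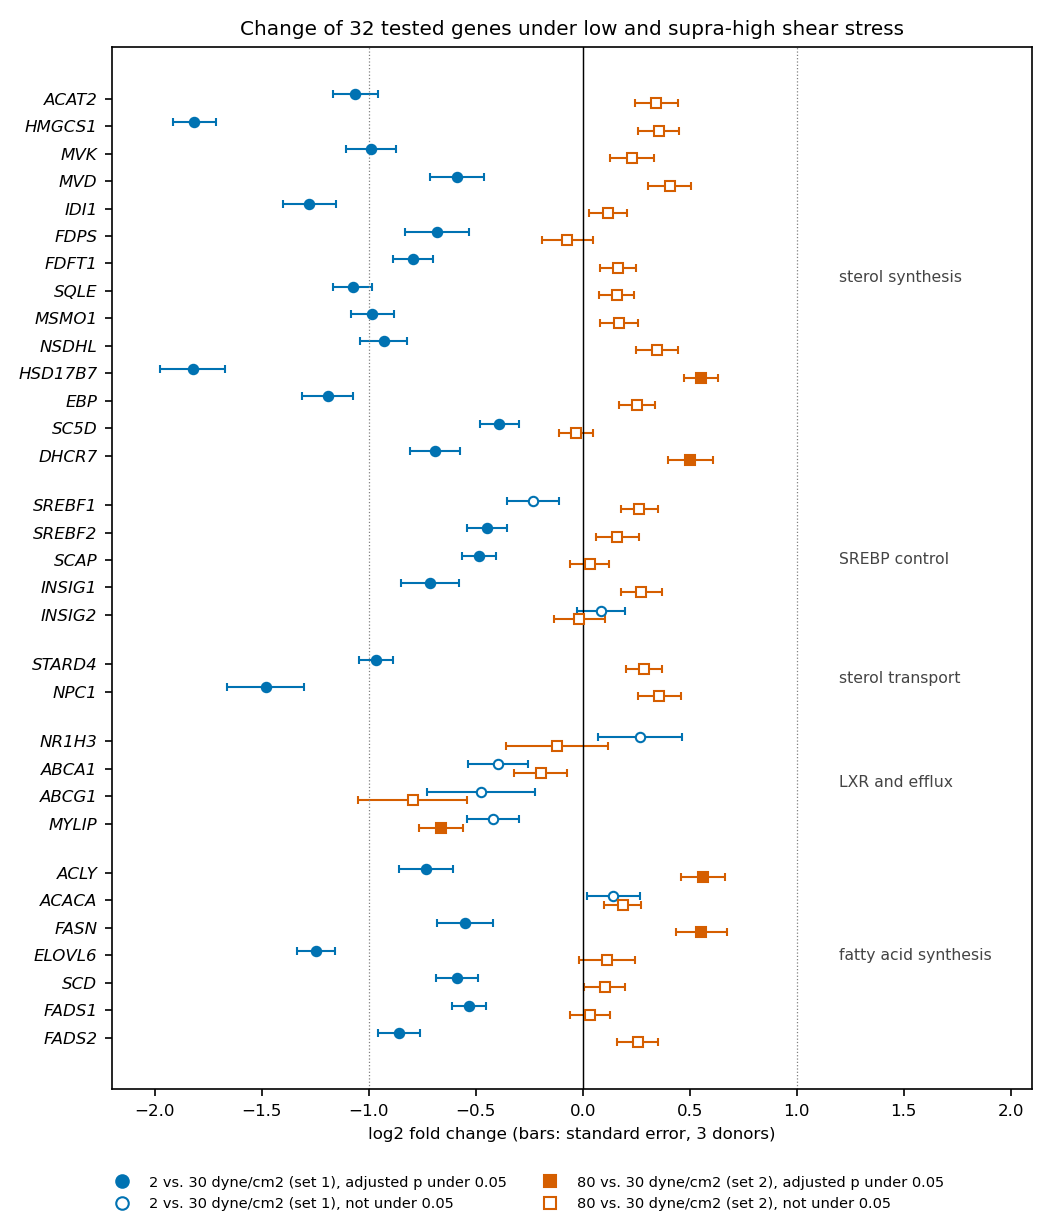
Log2 fold change (horizontal axis) of the 32 tested genes, grouped by role, at 2 vs. 30 dyne/cm2 (circles) and 80 vs. 30 dyne/cm2 (squares). Bars are the standard error derived from the edgeR test with 3 donors, not that of the 3 donor values. Filled symbols have an adjusted p under 0.05, and dotted lines mark a 2-fold change. Filled circles lie left of 0 for 25 genes, filled squares lie right of 0 for 4 genes and left of 0 for MYLIP, and no square reaches a dotted line.

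Few of these genes changed under supra-high shear stress. At 80 vs. 30 dyne/cm2, 4 genes rose (HSD17B7, DHCR7, ACLY and FASN), MYLIP fell and 27 of 32 were not past the threshold. Over all 11187 genes tested, 4.36% rose and 4.04% fell, 8.4% together. No change reached 2-fold, against 2.2% of all genes tested. The log2 fold change was above 0 for 25 of 32 genes, with a median of 0.18, and 16 genes had an unadjusted p under 0.05, against 26.1% of all genes. In all 3 donors, 17 genes were higher at 80 dyne/cm2, against 20% of all genes tested, and 3 were lower (SC5D, ABCG1 and MYLIP, 27.1% of all genes). The groups did not overlap for DHCR7, SREBF1, ACLY, FASN and FADS2, all higher at 80 dyne/cm2 (6.23% of all genes), and for MYLIP, which was lower (7.92%).

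These 5 calls rested on the design. A fit with no replicate block called 0 of the 32 genes (9 at an unadjusted p under 0.05) and 0 of all genes. DESeq2 with the donor term called 9, adding ACAT2, HMGCS1, MVD and NPC1. Without donor 2 the calls were HSD17B7 and MYLIP, and without donor 3 only MYLIP was called. With set 1 in place of set 2 as the control, 0 of the 32 were called (15 at an unadjusted p under 0.05). No share of all genes is given for DESeq2, for set 1 as the control or with a donor left out.

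HSD17B7 had 34.97, 39.0 and 57.5 CPM in set 2 and 54.5, 53.7 and 79.4 CPM at 80 dyne/cm2 in donors 1, 2 and 3. Each donor rose by a similar amount, although donor 3 in set 2 was above donors 1 and 2 at 80 dyne/cm2, and the log2 fold change was 0.55 (SE 0.08, adjusted p = 0.00920). DHCR7 had 75.8, 73.1 and 94.5 CPM in set 2 and 123, 107 and 106 CPM at 80 dyne/cm2 (log2 fold change 0.50, SE 0.11, adjusted p = 0.0314). Most of its rise came from donors 1 and 2, with 0.69 and 0.54 on the log2(CPM + 1) scale against 0.16 in donor 3. ACLY had 517, 639 and 694 CPM in set 2 and 807, 925 and 923 CPM at 80 dyne/cm2 (log2 fold change 0.56, SE 0.10, adjusted p = 0.0191). FASN had 958, 980.1 and 1217 CPM in set 2 and 1499.7, 1500.7 and 1500.8 CPM at 80 dyne/cm2 (log2 fold change 0.55, SE 0.12, adjusted p = 0.0336). The libraries at 80 dyne/cm2 were within 2 CPM of each other, a spread smaller than in any other group of this gene. MYLIP had 88.2, 94.7 and 80.4 CPM in set 2 and 58.4, 47.4 and 57.2 CPM at 80 dyne/cm2, without overlap (log2 fold change -0.66, SE 0.10, adjusted p = 0.0129).

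The other genes with the largest falls at low shear were not past the threshold at 80 dyne/cm2. HMGCS1 had 578, 565 and 777 CPM in set 2 and 785, 660.25 and 956 CPM at 80 dyne/cm2 (log2 fold change 0.35, SE 0.10, adjusted p = 0.0676). NPC1 had 174, 229 and 337 CPM in set 2 and 237, 310.3 and 362 CPM at 80 dyne/cm2 (log2 fold change 0.36, SE 0.10, adjusted p = 0.0735). Both were higher in each donor, and both were past the threshold with DESeq2. IDI1 had 228, 237 and 314 CPM in set 2 and 277, 219.6 and 334 CPM at 80 dyne/cm2 (log2 fold change 0.12, SE 0.09, adjusted p = 0.441), with donor 2 lower and the other donors higher. ELOVL6 had 53.1, 65.1 and 56.3 CPM in set 2 and 80.1, 57.8 and 49.7 CPM at 80 dyne/cm2 (log2 fold change 0.11, SE 0.13, adjusted p = 0.625). Only donor 1 was higher, and without it the log2 fold change turned to -0.09.

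Among the other sterol genes, ACAT2 had 157, 161 and 206 CPM in set 2 and 229, 202 and 214 CPM at 80 dyne/cm2 (log2 fold change 0.34, adjusted p = 0.0774). NSDHL had 83.8, 91.8 and 113 CPM in set 2 and 128, 109.85 and 119 CPM at 80 dyne/cm2 (log2 fold change 0.35, adjusted p = 0.0731). MVD, with a log2 fold change of 0.41, was just outside the threshold (adjusted p = 0.0504). Donor 3 was almost level in ACAT2 and NSDHL. EBP had 148, 198 and 183 CPM in set 2 and 197, 219.8 and 196 CPM at 80 dyne/cm2 (log2 fold change 0.25, adjusted p = 0.111). MVK had 46.3, 58.3 and 70.8 CPM in set 2 and 62.2, 69.6 and 66.8 CPM at 80 dyne/cm2 (log2 fold change 0.23, adjusted p = 0.204), where donor 3 was lower. SQLE had 188, 169 and 236 CPM in set 2 and 223, 169.9 and 257 CPM at 80 dyne/cm2 (log2 fold change 0.16, adjusted p = 0.264). FDFT1 had 201, 216 and 287 CPM in set 2 and 229, 239 and 301 CPM at 80 dyne/cm2 (log2 fold change 0.17, adjusted p = 0.264). In SQLE and FDFT1 the differences between donors exceeded those between groups. MSMO1 had 203, 245 and 245 CPM in set 2 and 239, 239 and 283 CPM at 80 dyne/cm2 (log2 fold change 0.17, adjusted p = 0.264). FDPS (-0.07) and SC5D (-0.03) were the sterol genes with a log2 fold change below 0.

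Of the control genes, 0 of 5 were called at 80 dyne/cm2 (2 at an unadjusted p under 0.05, 0 with DESeq2). SREBF2 had 399, 349 and 461 CPM in set 2 and 489, 392 and 437 CPM at 80 dyne/cm2 (log2 fold change 0.16, SE 0.10, adjusted p = 0.352). SREBF1 had 88.0, 83.7 and 102 CPM in set 2 and 110.2, 102 and 108 CPM at 80 dyne/cm2 (log2 fold change 0.27, SE 0.09, adjusted p = 0.104). For SREBF1 the libraries of the groups touched but did not overlap. INSIG1 had 189, 224 and 282 CPM in set 2 and 232, 285 and 299 CPM at 80 dyne/cm2 (log2 fold change 0.27, SE 0.10, adjusted p = 0.123). SCAP and INSIG2 had log2 fold changes of 0.03 and -0.01. The transport gene STARD4 had 43.9, 64.0 and 66.3 CPM in set 2 and 59.6, 66.6 and 79.5 CPM at 80 dyne/cm2 (log2 fold change 0.29, SE 0.08, adjusted p = 0.0805).

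LXR and efflux genes all had a log2 fold change below 0 at 80 dyne/cm2. Beside MYLIP, ABCG1 had the lowest at -0.79 (SE 0.25, adjusted p = 0.101), with 3.87, 0.968 and 5.45 CPM in set 2 and 1.99, 0.296 and 4.26 CPM at 80 dyne/cm2. Its donors differed more than its groups. ABCA1 and NR1H3 had log2 fold changes of -0.20 and -0.12. FADS2 had 258, 273 and 286 CPM in set 2 and 347, 319 and 290.4 CPM at 80 dyne/cm2 (log2 fold change 0.26, SE 0.10, adjusted p = 0.143). FADS1 had 126, 136 and 109 CPM in set 2 and 152, 131 and 94.5 CPM at 80 dyne/cm2 (log2 fold change 0.03, SE 0.09, adjusted p = 0.856), higher only in donor 1. SCD (0.10) and ACACA (0.19) were not called.

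**Figure D3:**
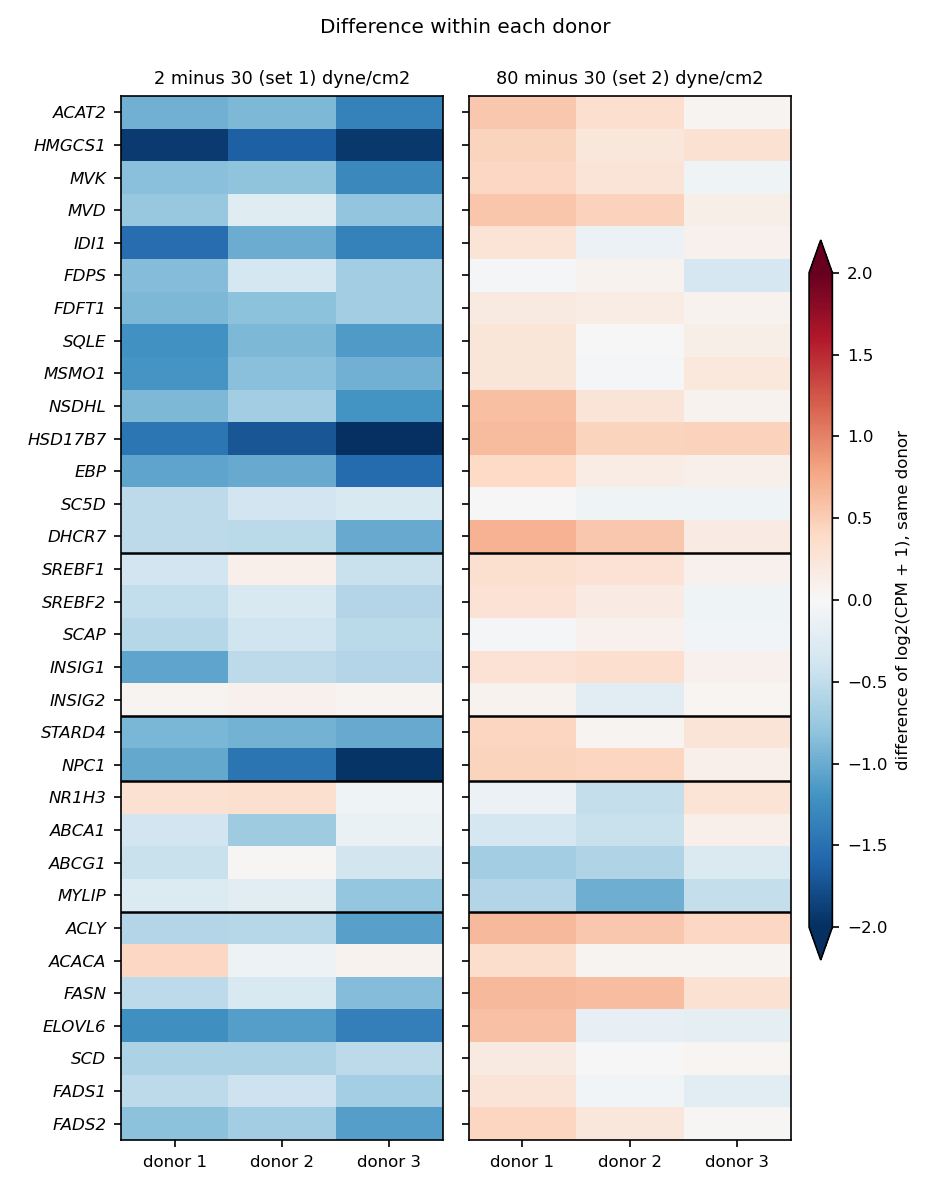
Difference of log2(CPM + 1) within each donor for the 32 tested genes (rows, grouped by role between black lines), at 2 minus 30 dyne/cm2 (left) and 80 minus 30 dyne/cm2 (right); blue is lower and red is higher than the control of the same donor, on a scale from -2 to 2. On the left 27 rows are blue in all 3 donors, and on the right 17 rows are red in all 3, with donor 1 the strongest for DHCR7 and ELOVL6.

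Whether the responses to low and supra-high shear stress differed was tested over all 12 libraries, as the log2 fold change at 2 dyne/cm2 minus that at 80 dyne/cm2. The difference was below 0 and past the threshold for 25 of 32 genes and above 0 for 0 of them, against 17.9% and 19.3% of 11568 genes tested, 37.1% together. It was -2.15 for HMGCS1 (SE 0.22, adjusted p = 0.000152), -2.35 for HSD17B7 (SE 0.27, adjusted p = 0.000268) and -1.80 for NPC1 (SE 0.24, adjusted p = 0.000546). ACLY and FASN, which were called in both comparisons, differed by -1.27 (SE 0.17, adjusted p = 0.000548) and -1.09 (SE 0.17, adjusted p = 0.00113). SREBF1, called in neither, differed by -0.49 (SE 0.14, adjusted p = 0.0221), and SREBF2 by -0.60 (SE 0.12, adjusted p = 0.00410). The call of SREBF1 was lost with no replicate block (adjusted p = 0.0703), without donor 1 (0.163) and without donor 3 (0.128), and that of SREBF2 without donor 1 (0.0677). FDPS was barely past the threshold (-0.59, SE 0.21, adjusted p = 0.0497), and not with no replicate block (0.417) or with any donor left out (0.0774 to 0.264). The 7 genes not called were SC5D, INSIG2, ACACA and the 4 LXR and efflux genes. MYLIP, with a log2 fold change below 0 in both comparisons, had a difference of 0.26 (SE 0.19, adjusted p = 0.318). A fit with no replicate block called 20 of the 32, and its share of all genes is not given.

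Both sets at 30 dyne/cm2 served as a background for the list. At 30.2 vs. 30.1, 0 of 32 genes were called (4 at an unadjusted p under 0.05, 1 with DESeq2, ABCG1), against 0.0179% of 11163 genes tested, or 19.2% at an unadjusted p under 0.05. Set 2 was above set 1 in all 3 donors for 8 genes (MVD, FDPS, SREBF2, ABCA1, ABCG1, MYLIP, ACACA and FASN), against 25.2% of all genes. Slide and set cannot be told apart where the labels and the methods differ.

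Taken by role, the median within-donor difference at 2 dyne/cm2 was -0.98 for sterol synthesis, -1.22 for sterol transport, -0.60 for fatty acid synthesis, -0.46 for the control genes and -0.34 for LXR and efflux, on the log2(CPM + 1) scale. Over all genes tested it was -0.01. The same medians at 80 dyne/cm2 were 0.20, 0.29, 0.15, 0.13 and -0.38, and over all genes -0.04. Donor 1 had the largest median at 80 dyne/cm2 over all 33 genes with an ID, 0.29 against 0.14 in donor 2 and 0.08 in donor 3. Between both sets at 30 dyne/cm2 the medians were 0.11, -0.01, 0.10, 0.10 and 0.13, in the same order of roles, but donor 3 alone reached 0.38 for sterol synthesis. For donor 3, set 2 was thus above set 1 by more than the median rise of any donor's sterol genes at 80 dyne/cm2 except that of donor 1, which was 0.40.

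The 33 genes took 0.338 to 0.447% of all counted reads at 2 dyne/cm2, 0.592 to 0.706% in set 1, 0.614 to 0.792% in set 2 and 0.802 to 0.879% at 80 dyne/cm2. The low group was separate from all others, and the group at 80 dyne/cm2 lay just above set 2. Of the sum of squares of log2(CPM + 1) over the 12 libraries, the 4 groups accounted for a median of 84.0% over the 32 genes and donors for 6.99%, whereas over all genes tested these were 39.6% and 30.0%. Donors accounted for 72.3% in ABCA1, 64.7% in ABCG1 and 46.7% in FADS1.

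**Figure D4:**
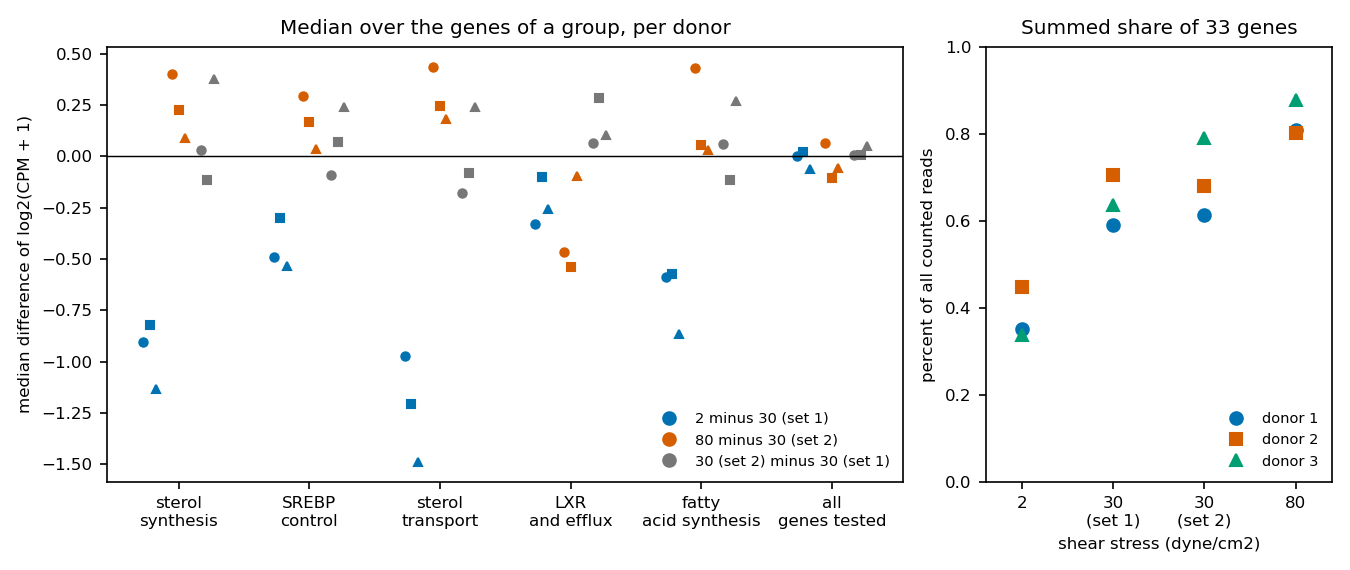
Left, the median difference of log2(CPM + 1) over the genes of each role and over all genes tested, by donor (circle donor 1, square donor 2, triangle donor 3) and comparison (colour); right, the share of all counted reads taken by the 33 genes in percent, by shear stress in dyne/cm2. Low shear lies below 0 for every role in every donor, supra-high shear above 0 except for LXR and efflux, and the share rises from 0.338% in the lowest library at 2 dyne/cm2 to 0.879% in the highest at 80 dyne/cm2.

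A further 68 genes of the same pathways were listed from general knowledge, with earlier results of these data known, so they are no independent check. At 2 dyne/cm2 52 of them were tested, of which 16 fell and 3 rose. At 80 dyne/cm2 53 were tested, of which 6 rose and 3 fell. Over all genes tested, 12.4% fell and 13.4% rose at 2 dyne/cm2, and 4.36% rose and 4.04% fell at 80 dyne/cm2. Among enzymes of sterol synthesis and uptake, 5 of 8 tested genes fell at 2 dyne/cm2. AACS, which activates acetoacetate for lipid synthesis, fell by 1.12 on the log2 scale (SE 0.08, adjusted p = 0.00403). Among 21 further fatty acid genes 6 fell and 0 rose. As a list they did not shift: the log2 fold change was below 0 for 12 and above 0 for 9. Its median was -0.03 and its highest value 1.46, which was not called. Among the 6 that fell were suppliers of acetyl-CoA and NADPH, ACSS2 by 1.15 (SE 0.11, adjusted p = 0.00607) and ME1 by 1.13 (SE 0.11, adjusted p = 0.00640). Another was MID1IP1, an activator of acetyl-CoA carboxylase, falling by 1.01 (SE 0.16, adjusted p = 0.0162). Without donor 3, MID1IP1 was not past the threshold (adjusted p = 0.0512). At 80 dyne/cm2 ACSS2 rose by 0.43 (adjusted p = 0.0319) and MID1IP1 by 0.53 (adjusted p = 0.0391). Both calls were lost without donor 2, without donor 3 and with no replicate block. They were also lost with set 1 as the control (adjusted p = 0.120 and 0.587), with both control sets (0.0837 and 0.222) and in 1 fit over 12 libraries (0.125 and 0.133).

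Among the further genes of sterol transport and storage are enzymes of oxysterols. CH25H, which makes 25-hydroxycholesterol, had 0.562, 0.540 and 0.693 CPM at 2 dyne/cm2 and 8.31, 22.7 and 39.0 CPM in set 1. It passed the filter in that comparison only through set 1 and so had to differ, so no fold or test is given there, although it is among the 16 that fell. In set 2 it had 5.92, 12.6 and 46.8 CPM and at 80 dyne/cm2 20.7, 67.9 and 107 CPM (log2 fold change 1.83, SE 0.22, adjusted p = 0.00635). Donors kept the same order in these groups, each donor rose, and with no replicate block the adjusted p was 0.677. CYP7B1, which hydroxylates oxysterols for breakdown, had 13.9, 27.4 and 2.77 CPM at 2 dyne/cm2 and 3.6, 12.3 and 0.619 CPM in set 1 (log2 fold change 1.68, SE 0.24, adjusted p = 0.0123, or 0.428 with no replicate block). Its donors differed more than its groups, and it was higher at low shear in all 3. Of 4 further LXR genes tested at 2 dyne/cm2, 1 fell and 1 rose, and of 5 further SREBP control genes 0 fell and 1 rose, where 25.8% of all genes were called, so nothing is read from these counts.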

How the data were processed

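The authors deposited raw counts per gene, not normalized. Per the labels, RNA libraries (TruSeq) were read single-end, mapped to Sscrofa11.1 with STAR 2.4, keeping reads with 1 location only, and counted with featureCounts 1.4.6. Genes with near-identical copies are therefore undercounted. The strand setting of the counting is not given in the sources used here, so reads of overlapping genes may not be told apart (ACAT2 with TCP1, NPC1 with C6H18orf8, NR1H3 with MADD and ACP2, ACACA with C12H17orf78 by RefSeq positions). A symbol was found for 68.9% of 21153 genes, and 3718 genes had 0 counts throughout. Transcript lengths were not used, so levels are not compared between genes.

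The quasi-likelihood test of edgeR 4.0.16 was run in R 4.3.3 on genes with 1 CPM or more in 3 or more libraries of a comparison, with TMM normalization, donor as a term and Benjamini-Hochberg adjustment over all genes tested. A gene was called at an adjusted p under 0.05, and the study's 2-fold limit is given apart. The standard error is the log2 fold change divided by the square root of F. In the study, a donor's cultures were compared at equal passage, and labels name a donor for each replicate number. As a check of this pairing, deviations from group means over 11568 genes correlated at 0.608 to 0.863 in the 18 same-number pairs and at -0.549 to -0.168 in the 36 others. Because the deviations within a group cancel out, the values of the 36 others are tied to those of the 18 and are no separate check. Cultures of a donor are separate. With donor as a term, each p rests on the variation left after group and donor, with 1 culture per pig and group. That variation is estimated partly from all genes tested, so it is not the spread of a gene's change among 3 pigs alone. For the difference of responses it is taken over all 12 libraries. Level differences between pigs enter only in the fits without that term. The controls of each comparison follow the rule for these genes and the culture numbers in the labels. Within-donor differences are of log2(CPM + 1) and carry no test. The procedure was also run on simulated data, with changes at 2 dyne/cm2 only, equal in all donors, and the same dispersion for all genes. That setting is simpler than these data, and nothing is read from it here.

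Members and lists were chosen with earlier results of these data known. Values per library are given for SREBF1, SREBF2, INSIG1 and the 16 called members with the smallest adjusted p of 26, and for a few others as stated; genes of other lists are named where called with at least a 2-fold change, and 2 genes that this rule takes are not reported here. Alternatives were no donor term, relative log expression normalization, DESeq2 1.42.0, no filter, a minimum of 10 counts throughout, each donor left out, exchanged or joined control sets, and 1 fit over 12 libraries. By the labels, exchanged or joined control sets also bring in another slide and seeding density. Promoter and protein sequences were not analysed here.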

Additional observations from a re-analysis of the deposited data

How the results depend on the processing

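Of 1200 alternative values of single genes, 1078 kept direction and side of the threshold, 87 lost and 19 gained a call, and 16 turned in sign, all 16 in values that were not called. With exchanged control sets, the log2 fold changes that turned were ACACA at 2 dyne/cm2 (-0.0846) and FDPS (0.35), SC5D (0.0789), INSIG2 (0.0163) and ABCG1 (0.28) at 80 dyne/cm2, and with both control sets FDPS (0.12), SC5D (0.0224) and INSIG2 (0.005) at 80 dyne/cm2. With a donor left out, the ranges that crossed 0 at 80 dyne/cm2 were -0.204 to 0.0390 for FDPS, -0.0519 to 0.0947 for SCAP, -0.0746 to 0.0443 for INSIG2, -0.417 to 0.0958 for NR1H3, -0.0949 to 0.229 for ELOVL6 and -0.0513 to 0.122 for FADS1. In the difference of the responses they were -0.0152 to 0.734 for ABCG1 and -0.128 to 0.0809 for ACACA. The cause was not tested.

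The count of calls at 2 dyne/cm2 lay between 16 and 20 with a donor left out and between 18 (no replicate block) and 28 (both control sets) otherwise, and the count with a 2-fold change between 8 and 13 (set 2 as control). The count at 80 dyne/cm2 was 0 with no replicate block or with set 1 as control, 3 in 1 fit over 12 libraries, 9 with DESeq2 and 1 to 7 with a donor left out, against 5. At 30.2 vs. 30.1 DESeq2 called 1 gene, with a change over 2-fold. The count of differing responses lay between 18 and 25. For these settings no share of all genes is given, except with no replicate block at 2 and 80 dyne/cm2. Medians of within-donor differences moved with the other control set to -0.55 (LXR and efflux) and -0.87 (all genes of the list) at 2 dyne/cm2 and to -0.12 (LXR and efflux) at 80 dyne/cm2. Groups of 3 donors limit the precision, as does the depth for ABCG1 and NR1H3, the genes of the lowest counts.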

Other observations

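ABCG1 was the gene of the list that differed most between both sets at 30 dyne/cm2. It had 1.83, 0.515 and 2.21 CPM in set 1 and 3.87, 0.968 and 5.45 CPM in set 2, higher in each donor (log2 fold change 1.12, SE 0.18). The adjusted p was 0.0949 in edgeR and 0.0241 in DESeq2. Accordingly its log2 fold change at 80 dyne/cm2, -0.79 against set 2, was 0.28 against set 1, and at 2 dyne/cm2 it was -0.48 against set 1 and -1.59 against set 2.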
